A study of Mus musculus with 8 samples.

Results

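Interferon-stimulated genes are the genes that a cell switches on when an interferon binds its surface, and 40 of them were listed by name for study in the intestinal epithelium of mice. Of these, 35 were measured, among 12393 genes in all. The list has 2 classes. The type I-like class holds antiviral effectors, sensors and regulators known mainly as targets of type I and type III interferons, and 28 of its 32 listed genes were measured. The type II-like class holds the transcription factor Irf1 and the immunity GTPases known mainly as targets of interferon gamma, and 7 of its 8 listed genes were measured. Isg15 and Tgtp1 appeared only in probe sets paired with several gene symbols and are given no value, and Ifi44, Xaf1 and Ly6e were not analysed here.

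RNA from intestinal epithelial cells was hybridised to 8 Affymetrix arrays, 2 for each of 4 genotypes. The double mutants (bCATca_IKKa-AA) carried an inducible constitutively active β-catenin (β-catc.a.) together with the IkkαAA/AA allele, the bCATca mice carried the active β-catenin alone, the IKKa-AA mice carried IkkαAA/AA alone, and the WT mice carried neither. β-catenin is the transcriptional effector of Wnt signalling, and its stabilisation, which the study's description limits to the epithelium, makes crypts expand and differentiated cells disappear. IKKα is a kinase of the non-canonical NF-κB pathway, and in the AA allele, as it is known, alanines replace the serines of its activation loop in every cell of the animal. All 4 groups, WT included, shared a mixed background (C57BL/6 x 129Sv x FVB), received tamoxifen by gavage on 5 days, and gave cells 15 days after the first dose. The labels name neither the promoter that drives recombination nor the age of the mice. They do not say whether the 2 samples of a group came from separate animals, so a p-value measures the spread between these samples, which may be technical. The 2 WT samples differed in sex by their sex chromosome transcripts, so these did not come from the same animal.

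Type I and type III interferons act through a complex that holds STAT2 and IRF9 and binds the interferon-stimulated response element, a repeat of the half-site GAAA. Interferon gamma acts through the gamma-activated site, a TTC and a GAA facing each other. In the gut, epithelial cells respond to type III interferon in particular, and interferon gamma comes largely from lymphocytes that lie within the epithelium. The 2 routes share many targets, so the class of a gene describes its best known inducer and not the ligand present in these mice.

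Promoters in the RefSeq table for GRCm38.p6, each running from 250 bases before to 50 bases after an annotated start, were available for 19 of the 28 type I-like and 6 of the 7 type II-like members measured. The 5 windows of 100 bases below are shown because they hold the elements that interferon signalling is known to act through. They were chosen by rule, as the members of each class with the smallest p of the test over the 4 groups among promoters that hold the motif searched. Sequences run 5′ to 3′ on the strand of the gene. In the first 3, capitals mark a pair of GAAA half-sites 2 bases apart (GAAANNGAAA, or its reverse complement), overlapping in Bst2 and Oas1a. In the last 2, capitals mark TTCNNNGAA. Igtp and Irf1 were the only type II-like members whose promoter in the table held it. Neither passed the threshold used below in any comparison.
Bst2, chr8:71537548-71537647, minus strand: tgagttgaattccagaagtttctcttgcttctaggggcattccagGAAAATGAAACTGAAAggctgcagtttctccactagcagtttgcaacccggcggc
Ifit3, chr19:34583328-34583427, plus strand: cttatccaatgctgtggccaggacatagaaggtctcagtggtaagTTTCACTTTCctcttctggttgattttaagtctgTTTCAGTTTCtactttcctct
Oas1a, chr5:120907491-120907590, minus strand: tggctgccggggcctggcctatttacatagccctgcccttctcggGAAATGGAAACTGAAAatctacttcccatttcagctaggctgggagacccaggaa
Igtp, chr11:58199466-58199565, plus strand: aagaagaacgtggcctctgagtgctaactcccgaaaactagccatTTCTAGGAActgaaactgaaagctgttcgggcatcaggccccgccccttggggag
Irf1, chr11:53769879-53769978, plus strand: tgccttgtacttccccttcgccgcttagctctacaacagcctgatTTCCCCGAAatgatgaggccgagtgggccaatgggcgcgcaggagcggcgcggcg

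Searched on both strands, GAAANNGAAA was present in 9 of 19 type I-like promoters (47.4%) and in 4 of 6 type II-like promoters (66.7%), against 3.84% of the 9888 measured genes with a promoter in the table. TTCNNNGAA was present in 5 type I-like promoters (26.3%) and 2 type II-like promoters (33.3%), against 8.44% of those genes. The Igtp window holds the GAAA repeat too, in the lower-case letters that follow its capitals, and the Bst2 window holds a TTCNNNGAA match that runs into its capitals. A match is a description of the letters, and a window without one says nothing of the factor.

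The deposited values were array intensities, analysed as log2 intensities, and a difference between groups is a log2 difference from a limma model over all 8 arrays, with its standard error (SE). A gene was called higher or lower when its Benjamini-Hochberg adjusted p over all 12393 genes was under 0.05. Median intensities of the arrays lay between 50.94 and 53.75. The epithelial adhesion gene Epcam read between 12.48 and 12.65 on every array, and the summed intensity of 8 epithelial markers lay between 36030 and 40850. Transcripts of the Y chromosome were lacking and Xist was high on WT replicate 1 alone, which thus differed in sex from the other 7 arrays. In the 2 IKKa-AA samples the profiles stood apart: across genes, which are not independent replicates, the array most like replicate 1 was that of double mutant replicate 2 (r = 0.9927) and the one most like replicate 2 was WT replicate 2 (r = 0.9936). For some results, though not for single genes or cell markers in general, values without 1 of these 3 arrays are given too.

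The interferon-stimulated genes were highest in the double mutants. The mean of the double mutants was the highest of the 4 group means for 35 of 35 members, against 21.2% of all genes, and the mean of WT was the lowest for 31 of 35, against 33.3% of all genes. Both double mutant arrays read above each of the 6 other arrays for 31 of 35 members, 26 of 28 type I-like and 5 of 7 type II-like, where 3.91% of all genes did so. The 4 exceptions were Rsad2, Oasl1, Gbp2 and Irf1.

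**Figure D1:**
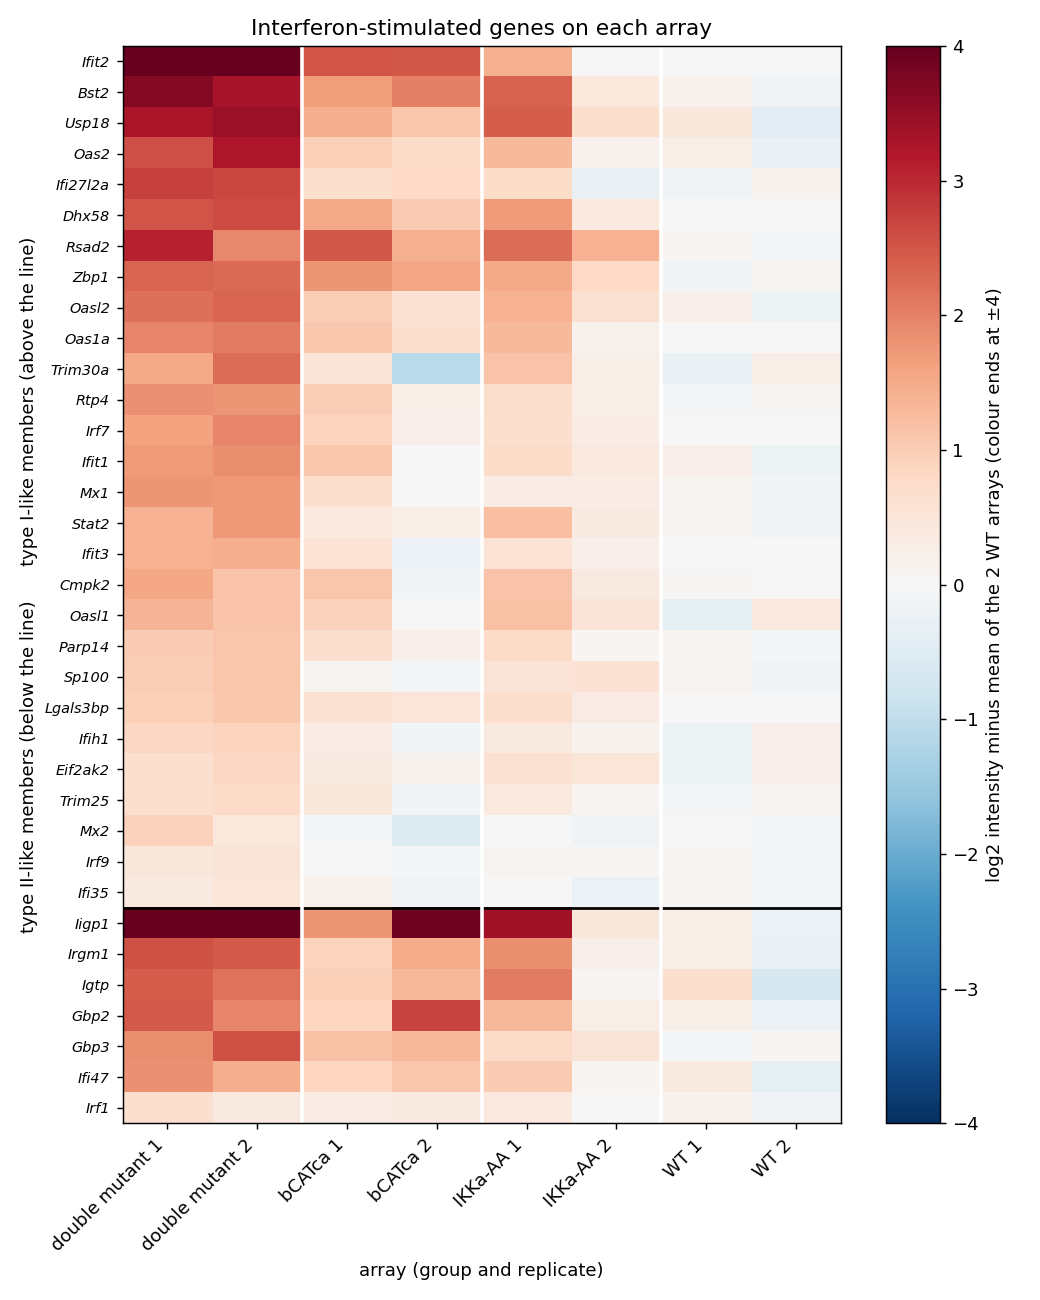
Each row is a member and each column an array, and the colour gives its log2 intensity minus the mean of the 2 WT arrays, with the scale ending at 4 in either direction. All 35 members lie above the WT mean on both double mutant arrays, and IKKa-AA replicate 1 lies above it for all 35 while IKKa-AA replicate 2 does so for 30.

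Between double mutants and WT, 21 of 35 members rose and none fell, against 0.984% of all genes called higher and 0.46% called lower. The 21 were 18 of 28 type I-like and 3 of 7 type II-like members, and they stood among 122 genes called higher. The median log2 difference was 1.78 over the members and 0.02 over all genes. All 35 differences were above 0, and all 35 had an unadjusted p under 0.05, as did 2099 of the 12393 genes. The calls needed both arrays of both groups. Leaving out any of those arrays left few or no calls among the members and few among all genes. In each of those fits 35 of 35 differences were above 0, with medians between 1.67 and 1.86. In bulk samples, fewer cells of a type and less RNA per cell cannot be told apart.

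Antiviral effectors gave 10 of the 21 calls, so that 10 of 14 measured effectors were higher in double mutants than in WT. The Ifit genes encode proteins that bind foreign RNA and block its translation. Ifit2 read 8.95 and 8.81 in double mutants, 7.23 and 7.18 in bCATca mice, 6.14 and 4.70 in IKKa-AA, and 4.70 and 4.72 in WT. Ifit2 thus formed steps from the double mutants through bCATca to WT with no overlap, while the 2 IKKa-AA arrays disagreed. It rose by 4.17 in double mutants against WT (SE 0.38, 18.0-fold, limma adjusted p = 0.0137). Ifit1 read 10.48 and 10.65 in double mutants, 9.87 and 8.81 in bCATca mice, 9.53 and 9.19 in IKKa-AA, and 8.99 and 8.59 in WT, where bCATca and WT overlapped. Ifit3 read 8.03 and 8.10 in double mutants, 7.20 and 6.41 in bCATca mice, 7.19 and 6.84 in IKKa-AA, and 6.66 and 6.64 in WT. Ifit1 rose by 1.77 (SE 0.32) and Ifit3 by 1.41 (SE 0.24) in double mutants against WT.

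The oligoadenylate synthetases make a messenger that activates RNase L, which degrades viral and cellular RNA. Oas2 read 8.23 and 8.88 in double mutants, 6.62 and 6.38 in bCATca mice, 6.96 and 5.82 in IKKa-AA, and 5.92 and 5.39 in WT. Oas1a read 11.38 and 11.50 in double mutants, 10.52 and 10.08 in bCATca mice, 10.74 and 9.60 in IKKa-AA, and 9.46 and 9.41 in WT. Both genes stood apart in the double mutants, and the means of the single mutants lay between those of double mutants and WT. Oasl2, a synthetase-like protein, read 10.62 and 10.76 in double mutants, 9.40 and 9.01 in bCATca mice, 9.81 and 9.04 in IKKa-AA, and 8.64 and 8.22 in WT. Oas2 rose by 2.90 (SE 0.37, limma adjusted p = 0.0182), Oasl2 by 2.26 and Oas1a by 2.01 in double mutants against WT. Oasl1, which in mice restrains Irf7 translation, differed by 1.26 (SE 0.36) and did not pass (limma adjusted p = 0.132).

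Bst2 encodes tetherin, which holds budding virus at the cell surface, and its promoter repeat is printed above. Bst2 read 9.62 and 9.26 in double mutants, 7.62 and 7.99 in bCATca mice, 8.31 and 6.37 in IKKa-AA, and 6.11 and 5.81 in WT, a difference of 3.48 between double mutants and WT (SE 0.51, 11.1-fold, limma adjusted p = 0.0244). Zbp1, a sensor of Z-form nucleic acid that can start necroptosis, read 9.92 and 9.88 in double mutants, 9.38 and 9.14 in bCATca mice, 9.10 and 8.41 in IKKa-AA, and 7.50 and 7.70 in WT. For Zbp1 every mutant array lay above both WT arrays, and it rose by 2.30 in double mutants against WT (SE 0.22, limma adjusted p = 0.0137). Rsad2 encodes viperin, which makes a chain-ending nucleotide against viral polymerases. Rsad2 read 10.32 and 9.17 in double mutants, 9.72 and 8.66 in bCATca mice, 9.48 and 8.64 in IKKa-AA, and 7.32 and 7.15 in WT, so that the 3 mutant groups overlapped one another and none overlapped WT. Rsad2 rose by 2.51 in double mutants against WT (SE 0.45, limma adjusted p = 0.0425). Mx1, a dynamin-like GTPase that blocks influenza virus in mice with an intact allele, read 5.77 and 5.75 in double mutants, 4.70 and 4.04 in bCATca mice, 4.32 and 4.32 in IKKa-AA, and 4.13 and 3.90 in WT. The WT mean of Mx1, 4.01, was no higher than the reading of a transcript that is absent (up to 4.03 among 10 such readings of sex chromosome genes), so its rise of 1.74 may understate the change.

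The other 4 effectors did not pass between double mutants and WT. Oasl1 is given above. Cmpk2, a mitochondrial nucleotide kinase encoded beside Rsad2, differed by 1.33 (SE 0.38), Eif2ak2, the RNA-activated kinase PKR, by 0.73 (SE 0.18) and Mx2 by 0.67 (SE 0.22), with limma adjusted p-values of 0.133, 0.093 and 0.173. Cmpk2, Eif2ak2 and Mx2 each had both double mutant arrays above the 6 others.

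The 2 measured members grouped here as RNA sensors were Dhx58, which encodes LGP2, and Ifih1, which encodes MDA5. Zbp1 and Eif2ak2, given above, were grouped with the effectors. Dhx58 read 7.96 and 8.06 in double mutants, 6.94 and 6.47 in bCATca mice, 7.14 and 5.82 in IKKa-AA, and 5.41 and 5.47 in WT. It rose by 2.57 in double mutants against WT (SE 0.37, limma adjusted p = 0.0224). A dimmer probe set of Dhx58 differed by -0.55 in the same comparison, and it was the only one of 14 further probe sets of 11 members that ran the other way. Ifih1 differed by 0.85 (SE 0.20, limma adjusted p = 0.0795).

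Of 4 transcription factors, Irf7 and Stat2 rose in double mutants against WT, and Irf9 and Irf1 did not pass. Irf7, which amplifies the production of type I interferon, read 10.24 and 10.58 in double mutants, 9.51 and 8.82 in bCATca mice, 9.29 and 8.92 in IKKa-AA, and 8.61 and 8.64 in WT, a rise of 1.78 (SE 0.24, limma adjusted p = 0.0199). Stat2 read 7.13 and 7.45 in double mutants, 6.13 and 6.01 in bCATca mice, 6.94 and 6.08 in IKKa-AA, and 5.84 and 5.62 in WT, a rise of 1.56 (SE 0.27, limma adjusted p = 0.0348). Both factors were set apart in the double mutants, and IKKa-AA replicate 1 came nearest to them for Stat2. Irf9, the DNA-binding partner of STAT2, differed by 0.47 (SE 0.13, limma adjusted p = 0.117).

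Usp18 and Trim25 belong to the ISG15 and ubiquitin system. Usp18 removes ISG15 from proteins and dampens signalling at the type I interferon receptor. Usp18 read 10.68 and 10.85 in double mutants, 8.86 and 8.53 in bCATca mice, 9.83 and 8.12 in IKKa-AA, and 7.86 and 6.96 in WT. It rose by 3.35 in double mutants against WT (SE 0.50, 10.2-fold, limma adjusted p = 0.0245), and all 6 mutant arrays lay above both WT arrays. Trim25, a ubiquitin ligase that activates RNA sensing, differed by 0.71 (SE 0.20, limma adjusted p = 0.131).

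Of the 7 remaining type I-like members, 4 rose in double mutants against WT. Ifi27l2a, a small membrane protein gene, read 9.18 and 9.12 in double mutants, 7.07 and 7.25 in bCATca mice, 7.18 and 6.13 in IKKa-AA, and 6.30 and 6.58 in WT. Rtp4, a chaperone of receptors that also limits viral RNA, read 10.10 and 10.03 in double mutants, 9.23 and 8.51 in bCATca mice, 8.96 and 8.53 in IKKa-AA, and 8.22 and 8.31 in WT. In both genes the double mutants were set off from every other array. Sp100, a component of PML nuclear bodies, read 7.53 and 7.65 in double mutants, 6.65 and 6.47 in bCATca mice, 7.06 and 7.13 in IKKa-AA, and 6.65 and 6.44 in WT. Lgals3bp, a secreted galectin-binding protein, read 11.05 and 11.17 in double mutants, 10.70 and 10.57 in bCATca mice, 10.81 and 10.44 in IKKa-AA, and 10.10 and 10.10 in WT. Sp100 was the exception in shape, since bCATca lay at the level of WT while IKKa-AA lay above it. The rises in double mutants against WT were 2.71 for Ifi27l2a (SE 0.30), 1.80 for Rtp4 (SE 0.24), 1.04 for Sp100 (SE 0.15) and 1.01 for Lgals3bp (SE 0.16). Trim30a, a restrictor of NF-κB signalling, differed by 1.87 (SE 0.52), Parp14 by 1.07 (SE 0.24) and Ifi35 by 0.42 (SE 0.16), none of which passed.

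The immunity GTPases act against bacteria and parasites that live in vacuoles, and of the 6 measured, Iigp1, Irgm1 and Gbp3 rose in double mutants against WT. Iigp1, an IRG effector that damages vacuoles, read 8.55 and 8.42 in double mutants, 5.23 and 7.38 in bCATca mice, 6.83 and 3.94 in IKKa-AA, and 3.73 and 3.23 in WT. Its fitted difference was 5.00 (SE 0.90, limma adjusted p = 0.0421), but the WT mean of 3.48 lay within the readings of absent transcripts, so no fold is given, and a dimmer probe set of the gene gave 3.95. Irgm1, a regulator of the IRG effectors and of autophagy, read 9.70 and 9.60 in double mutants, 8.04 and 8.64 in bCATca mice, 9.02 and 7.35 in IKKa-AA, and 7.42 and 6.90 in WT, a rise of 2.49 (SE 0.47, limma adjusted p = 0.0481). Gbp3, a guanylate-binding protein, read 6.90 and 7.58 in double mutants, 6.20 and 6.34 in bCATca mice, 5.81 and 5.54 in IKKa-AA, and 4.96 and 5.12 in WT. Gbp3 formed 4 steps without overlap and rose by 2.20 in double mutants against WT (SE 0.22, limma adjusted p = 0.0138).

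The GTPases Igtp, Gbp2 and Ifi47 did not pass in this comparison. Igtp, a regulatory IRG protein, read 11.98 and 11.73 in double mutants, 10.49 and 10.89 in bCATca mice, 11.62 and 9.63 in IKKa-AA, and 10.19 and 8.92 in WT, a difference of 2.31 (SE 0.60, limma adjusted p = 0.106). Gbp2 read 7.79 and 7.27 in double mutants, 6.18 and 8.04 in bCATca mice, 6.67 and 5.59 in IKKa-AA, and 5.56 and 5.11 in WT, a difference of 2.20 (SE 0.57, limma adjusted p = 0.104). The highest Gbp2 reading was thus on bCATca replicate 2 and not in a double mutant. Ifi47 read 10.60 and 10.23 in double mutants, 9.64 and 9.90 in bCATca mice, 9.79 and 8.85 in IKKa-AA, and 9.14 and 8.41 in WT, a difference of 1.64 (SE 0.34, limma adjusted p = 0.0588). Irf1, the only type II-like transcription factor measured, read 10.89 and 10.61 in double mutants, 10.58 and 10.62 in bCATca mice, 10.65 and 10.25 in IKKa-AA, and 10.41 and 10.11 in WT. Its difference of 0.49 (SE 0.19, limma adjusted p = 0.238) was the smallest of the type II-like members.

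**Figure D2:**
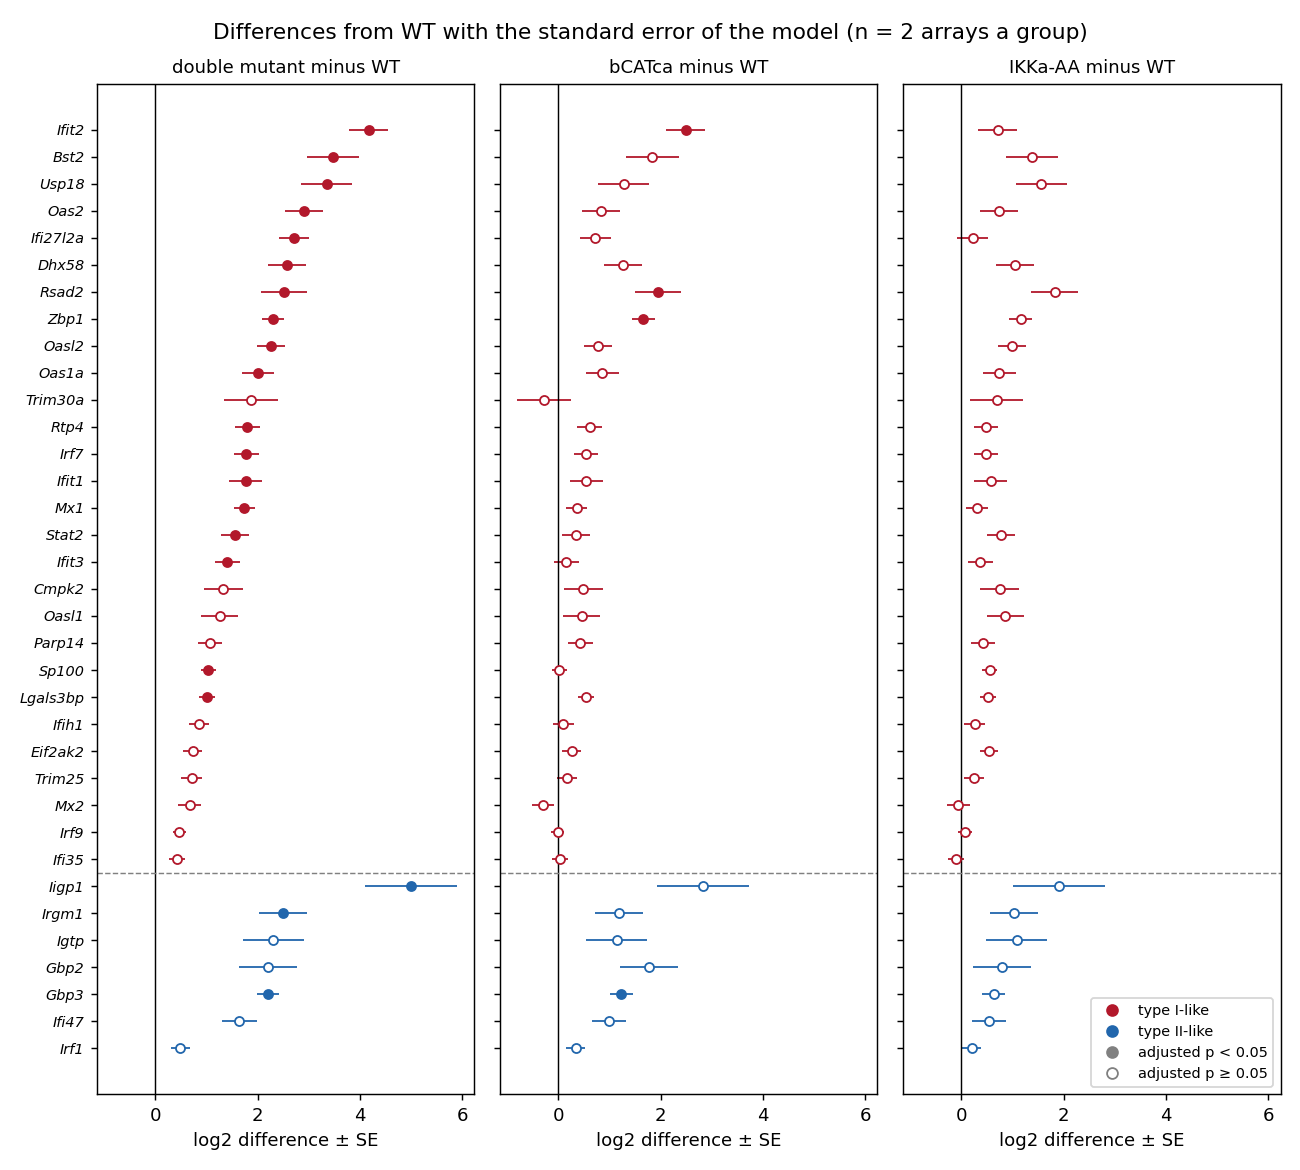
Points give the log2 difference from WT of each member in double mutants, bCATca and IKKa-AA, bars the standard error of the model (n = 2 arrays a group), and filled points an adjusted p under 0.05. Of 35 points, 21 are filled for double mutants, 4 for bCATca and none for IKKa-AA, and in the double mutant panel every point lies above 0.

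Fewer members were called for active β-catenin alone. In bCATca against WT, 4 of 35 members rose and none fell, against 5.74% of all genes called higher and 3.55% called lower, so the members' share was of the same order as that of all genes. The 4 were Ifit2, by 2.49 (SE 0.38, limma adjusted p = 0.00778), Rsad2, by 1.95 (SE 0.45), Zbp1, by 1.66 (SE 0.22, limma adjusted p = 0.00468), and Gbp3, by 1.23 (SE 0.22). The median difference was 0.52 over the type I-like and 1.18 over the type II-like members, against 0.01 over all genes. Without bCATca replicate 1 the type I-like median was 0.21 and 26 of 35 differences were above 0, and without bCATca replicate 2 the type I-like median was 0.79 and 34 were. Mx2, Trim30a and Irf9 had differences below 0, at -0.30, -0.28 and -0.01, and did not pass. A second probe set of Trim30a gave 0.29. In this comparison 10 of 14 further probe sets ran in the direction of the one used. Zbp1 was the only member called in all 8 fits that left out 1 array. Without bCATca replicate 2 or either WT array fewer members were called, and fewer of all genes. Without either IKKa-AA array more members were called, and more of all genes.

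Against WT, the IKKa-AA mice had no member called by limma, where 0.0% of all genes were called higher and 0.00807% lower. The differences of 33 of 35 members were above 0, against 49.2% of all genes, with a median of 0.63, and 12 had an unadjusted p under 0.05. The smallest p belonged to Zbp1, at 1.16 (SE 0.22, limma adjusted p = 0.236), followed by Rsad2 at 1.82 (SE 0.45). The values depended on the array: the median was 1.01 without IKKa-AA replicate 2, 0.27 without IKKa-AA replicate 1 and 0.66 without WT replicate 1. Members were called only without IKKa-AA replicate 2, where many more of all genes were called too.

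The AA allele on top of active β-catenin was read from double mutants against bCATca. Here 5 of 35 members rose and none fell, against 0.403% of all genes called higher and 0.807% called lower. All 5 were type I-like: Oas2 rose by 2.06, Ifi27l2a by 1.99 (SE 0.30, limma adjusted p = 0.025), Oasl2 by 1.48, Mx1 by 1.39 and Sp100 by 1.03 (SE 0.15, limma adjusted p = 0.021). The median difference was 1.17 over the type I-like and 0.97 over the type II-like members, and all 35 differences were above 0. Of the type II-like members, Gbp3 came nearest, at 0.97 (SE 0.22, limma adjusted p = 0.0877). Fewer members were called without any 1 array of the double mutants, bCATca or WT, and fewer of all genes. Without either IKKa-AA array more members were called, and more of all genes.

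Between double mutants and IKKa-AA, which differ in β-catenin, 2 of 35 members rose, against 0.0484% of all genes called higher and 0.00807% called lower. They were Ifit2, by 3.46 (SE 0.38, limma adjusted p = 0.0366), and Ifi27l2a, by 2.50 (SE 0.30, limma adjusted p = 0.0444). All 35 differences were above 0, with a median of 1.18, which was 0.71 without IKKa-AA replicate 2 and 1.49 without IKKa-AA replicate 1. More members, and more of all genes, were called without IKKa-AA replicate 1. Leaving out an array of any other group lost both calls. The comparisons given so far share arrays with one another, so their likeness is not independent.

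Averaged over both IKKα genotypes, 15 of 35 members rose with active β-catenin, 12 type I-like and 3 type II-like, against 2.99% of all genes called higher and 1.22% called lower. The largest were Ifit2 at 2.98 (SE 0.27, limma adjusted p = 0.00121) and Iigp1 at 2.96 (SE 0.64, limma adjusted p = 0.0416). Ifi47, not called elsewhere, rose by 1.04 at the edge of the threshold (SE 0.24, limma adjusted p = 0.05 after rounding). The median average effect was 1.32 over the type II-like and 0.74 over the type I-like members. Ifit2, Zbp1 and Gbp3 were called in all 8 fits that left out 1 array. Fewer members were called without any 1 array of the double mutants, bCATca or WT, and fewer of all genes. Without IKKa-AA replicate 1 more members were called, and more of all genes.

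Averaged over both β-catenin genotypes, the AA allele had no member called, against 0.0% of all genes called higher and 0.0403% called lower. All 35 average effects were nevertheless above 0, with a median of 0.85, and 32 had an unadjusted p under 0.05. Iigp1 at 2.04 (SE 0.64) and Usp18 at 1.82 (SE 0.35) were the largest, and Sp100, at 0.79 (SE 0.10), came nearest to the threshold (limma adjusted p = 0.0817). The median was 0.98 without IKKa-AA replicate 2, 0.73 without IKKa-AA replicate 1 and 0.85 without WT replicate 1. Many members were called without IKKa-AA replicate 2, where many more of all genes were called too.

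The interaction asks whether β-catenin acted differently in IKKa-AA mice than in mice with normal IKKα. No member was called, against 0.0403% of all genes called higher and 0.0484% called lower, and 6 members had an unadjusted p under 0.05. The median interaction was 0.48 over the type I-like members, 23 of 28 above 0, and 0.11 over the type II-like members, 5 of 7 above 0. These values moved most with the IKKa-AA arrays. Over all members, the median was 0.01 with 18 of 35 above 0 without IKKa-AA replicate 2, and 0.87 with 32 of 35 above 0 without IKKa-AA replicate 1. Without IKKa-AA replicate 2 the median was 0.20 over the type I-like and -0.55 over the type II-like members. The type II-like median also fell below 0 without WT replicate 1 (-0.20), bCATca replicate 1 (-0.07) or double mutant replicate 1 (-0.04). Ifi27l2a had the largest, at 1.78 (SE 0.42, limma adjusted p = 0.126), followed among the unadjusted calls by Oas2 at 1.32 (SE 0.53) and Mx1 at 1.08 (SE 0.30). Rsad2, with means of 9.74 in double mutants, 9.19 in bCATca, 9.06 in IKKa-AA and 7.24 in WT, had the lowest, at -1.27 (SE 0.64, limma adjusted p = 0.366). Leaving out either IKKa-AA array gave few calls of the interaction among the members, while calls among all genes rose.

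The classes were also set side by side. The type I-like median minus the type II-like median was -0.66 in bCATca against WT, -0.24 in IKKa-AA against WT and -0.44 in double mutants against WT, and 0.20 in double mutants against bCATca. These differences of medians were not tested, and 1 array turned the sign of some of them: the value for IKKa-AA against WT was 0.12 without IKKa-AA replicate 1, and that for double mutants against bCATca was -0.50 without bCATca replicate 2. In bCATca against WT the value was -1.14 without bCATca replicate 1 and -0.09 without bCATca replicate 2, so that 1 array moved it by most of its size.

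**Figure D3:**
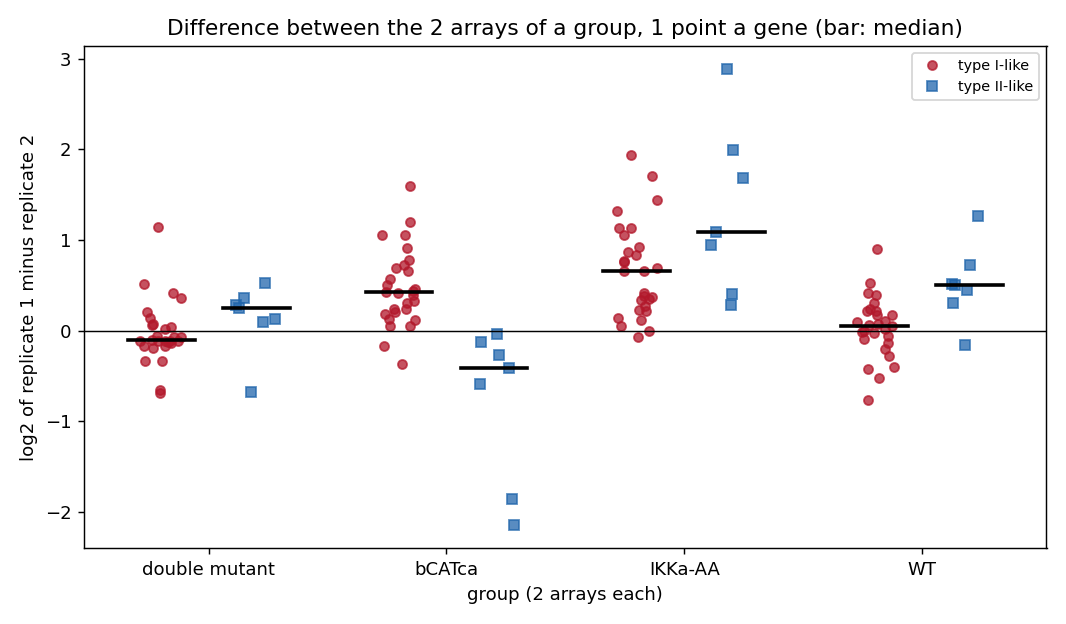
Each point is the log2 intensity of a member on replicate 1 minus that on replicate 2 of the same group, with type I-like and type II-like members side by side and a bar at the median. In bCATca the type I-like median is 0.43 and the type II-like median -0.41, while in IKKa-AA both are above 0, at 0.66 and 1.09.

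The classes also separated between samples of the same genotype. In bCATca, 26 of 28 type I-like members read higher on replicate 1, while 7 of 7 type II-like members read higher on replicate 2. The median of replicate 1 minus replicate 2 was 0.43 for the type I-like members, -0.41 for the type II-like members and -0.01 for all genes. Iigp1 and Gbp2 had the widest gaps, at -2.15 and -1.86, while Irf1 hardly moved, at -0.04. In IKKa-AA both classes were higher on replicate 1, for 33 of 35 members, with medians of 0.66 and 1.09 and the widest gap, 2.89, again in Iigp1. The medians were -0.10 for type I-like and 0.25 for type II-like members in double mutants, against 0.06 and 0.50 in WT. With 2 arrays a group, this split within bCATca has no replicate of its own and carries no test.

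Lymphocyte markers fell where the members rose, and markers of other cells were looked at beside them. Of 13 lymphocyte markers measured, 6 fell in double mutants against WT, among them Ptprc, the CD45 gene, by 3.36 (SE 0.46, limma adjusted p = 0.0199), Cd3g, which fell by 4.49, and Cd8a, which fell by 4.15, and the median over the 13 was -2.88. The others were Cd3d, which fell by 3.28, and the cytotoxic granule genes Gzma and Nkg7, of which Gzma fell by 3.26 and Nkg7 fell by 2.88. The summed intensity of the 13 was 1236 and 932.8 in double mutants, 5924 and 4515 in bCATca mice, 2299 and 8451 in IKKa-AA, and 9656 and 7389 in WT. The array order of this sum was near the reverse of that of the members, with IKKa-AA replicate 1 low in lymphocyte markers and high in interferon-stimulated genes. The summed intensity of 5 B and plasma cell markers was 118.5 and 119.1 in double mutants, 3940 and 2948 in bCATca mice, 277.6 and 3821 in IKKa-AA, and 1487 and 1909 in WT. In bCATca and WT, most of this sum came from Igha, an immunoglobulin A heavy chain gene. Igha fell by 5.96 in double mutants against bCATca (SE 1.07, limma adjusted p = 0.0444). In double mutants against WT none of the 5 was called. Igha, Jchain and Ms4a1 differed there by -4.95, -4.68 and -0.68, and Cd79a and Cd79b by 0.07 and 0.18. The summed intensity of 12 myeloid markers was 655.8 and 633.9 in double mutants and 1229 and 1255 in bCATca mice. It was 650.1 and 1327 in IKKa-AA, and 1306 and 1202 in WT. Yet the median difference of the 12 between double mutants and WT was -0.08 and none was called lower. A few bright genes thus carried the sum. That of 6 plasmacytoid dendritic cell markers lay between 689.3 and 943.8 on all arrays, but Klk1, by far the brightest, carried most of the sum. Ccr9, Spib and Klk1 read lower on both double mutant arrays than on both WT arrays, and Ly6d read higher. The median difference of the 6 was -0.17 in that comparison, and none was called. Of the myeloid list, Cd14, a receptor for bacterial endotoxin, rose by 1.02 in double mutants against WT and by 1.32 in bCATca against WT. In bCATca against WT the dendritic cell list gave 1 call, Ly6d, higher by 1.67, and the epithelial list 1 call, the keratin gene Krt18, higher by 1.17, and in double mutants against bCATca the B cell gene Ms4a1 fell by 1.14. On both double mutant arrays and on IKKa-AA replicate 1 the sums of the lymphocyte, B and plasma cell and myeloid markers were the 3 lowest, and the part of cell makeup in the results was not tested. An array gives no true 0, so no marker can be said to be absent.

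**Figure D4:**
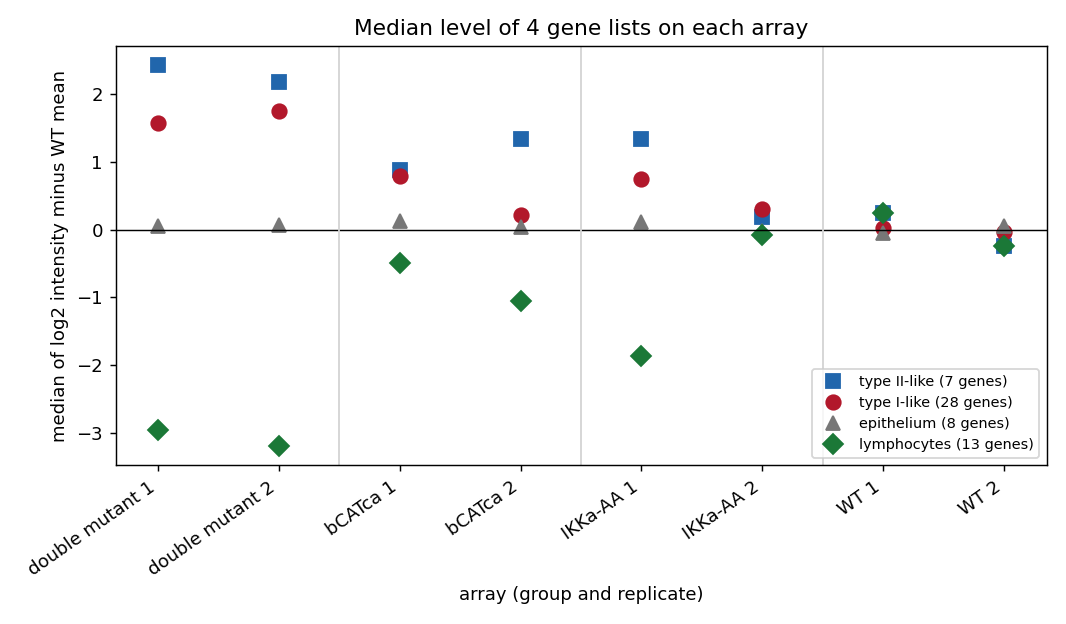
Symbols give, for each array, the median over a gene list of log2 intensity minus the mean of the WT arrays. The lymphocyte markers lie at -2.96 and -3.20 on the double mutant arrays, where the type I-like members lie at 1.58 and 1.75 and the type II-like members at 2.43 and 2.18, and the epithelial markers stay within 0.12 of 0 on all 8 arrays.

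Signs of RNA quality were looked at beside the same comparison. The ribosomal 18S control read 11.77 and 12.07 in double mutants, 11.97 and 12.15 in bCATca mice, 12.39 and 12.35 in IKKa-AA, and 11.31 and 11.69 in WT, lowest in WT. The 3′ minus 5′ difference of the actin probe sets was 0.77 and 0.49 in double mutants and 0.62 and 0.63 in bCATca mice. It was 0.45 and 0.37 in IKKa-AA, below both of these groups, and 0.65 and 0.41 in WT, which overlapped every other group. That of the Gapdh probe sets was -0.15 and -0.18 in double mutants and -0.01 and 0.05 in bCATca mice, the highest. It was -0.24 and -0.12 in IKKa-AA, and -0.16 and -0.23 in WT. The part of these in the results was not tested.

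Few upstream genes of the pathway were called. Of 9 interferon genes measured, none was called by limma in any of the 8 comparisons, and apart from Ifna1 none of their readings exceeded 4.06, beside up to 4.03 for absent transcripts. Ifnb1 read 4.04 and 3.20 in double mutants, 3.08 and 3.55 in bCATca mice, 3.29 and 3.31 in IKKa-AA, and 3.50 and 3.28 in WT. Ifng, the gene of interferon gamma, read 3.04 and 2.63 in double mutants, 2.65 and 3.67 in bCATca mice, 3.14 and 2.61 in IKKa-AA, and 2.56 and 2.89 in WT. Ifna1 was the brightest of them, at 5.12 and 4.63 in double mutants, 4.31 and 4.87 in bCATca mice, 4.26 and 4.61 in IKKa-AA, and 4.27 and 4.31 in WT (difference between double mutants and WT 0.58, limma adjusted p = 0.265). A fall from intensities at the level of absent transcripts cannot be read on these arrays.

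Of 8 receptor chains and kinases, none was called between double mutants and WT, with a median of -0.08. In bCATca against WT, Il10rb, a chain of the type III interferon receptor, fell by 0.79 (SE 0.18, limma adjusted p = 0.0339) and the kinase gene Jak2 fell by 0.86 (SE 0.21, limma adjusted p = 0.0415). Of 9 further transcription factors and brakes, Socs3, an inhibitor of cytokine receptor kinases, rose by 2.51 in double mutants against WT (SE 0.44, limma adjusted p = 0.0391) and by 2.06 in bCATca against WT. Socs3 read 9.23 and 8.96 in double mutants, 8.50 and 8.79 in bCATca mice, 8.90 and 8.25 in IKKa-AA, and 5.81 and 7.37 in WT, where the WT arrays stood far apart. Of 8 further genes of nucleic acid sensing, Sting1, the adaptor of cytosolic DNA sensing, rose by 1.66 in bCATca against WT (SE 0.21, limma adjusted p = 0.00404). Sting1 read 6.03 and 6.38 in double mutants, 7.00 and 7.29 in bCATca mice, 5.95 and 5.41 in IKKa-AA, and 5.52 and 5.45 in WT. It was thus highest in bCATca, unlike every member of the list, all of which were highest in the double mutants.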

How the data were processed

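The authors deposited linear intensities, 1 per probe set and array, for 22690 probe sets; they were made with RMA (affy package), per the submitters' processing notes, and tool versions and genome build are not given in the sources used here. Log2 was taken of every deposited intensity. Of the probe sets, 20380 were paired with 1 symbol, and the brightest by mean of 8 arrays stood for each of 12393 genes. Groups came from the sample labels. limma 3.58.1 in R 4.3.3 was fitted with 1 mean per group to all 8 arrays (4 residual and 4.28 prior degrees of freedom) and tested on simulated data. 8 comparisons were made, each adjusted by Benjamini-Hochberg over all genes at 0.05. Alternatives changed the normalization, the offset, the level filter, the probe set rule, the variance model, a replicate block and the arrays used. Tables and figures used Python 3.11.15, pandas 2.3.3, numpy 2.4.6 and matplotlib 3.10.9.

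The members and all lists were chosen with earlier results of these data known. By rule, values on every array are given for each of the 22 members called in any comparison and for every type II-like member; of other lists, genes called or the gene with the smallest p, with Ifnb1, Ifng and Epcam added after their values were seen. Members of the Ifit, Oas, Gbp and IRG families resemble one another, and probe sets may read more than 1 of them. Arrays carry no read depth, and their number limits the precision.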

Additional observations from a re-analysis of the deposited data

How the results depend on the processing

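With 2 arrays a group, the counts of members called depended on the arrays and on the setting more than the direction of the differences did. Over the 17 settings of double mutants against WT, all differences of the members tested were above 0, with medians between 1.67 and 1.86. The number called there ranged from 0 to 26 when an array was left out. With an offset, log2 of the intensity plus 16, it was 0, and 0 of all genes were called in either direction. The median of the members with this offset was 1.74, and all 35 had an unadjusted limma p under 0.05. The cause of this loss of calls was not tested. Counts with an array left out ranged from 1 to 15 for bCATca against WT, 0 to 11 for IKKa-AA against WT, 0 to 16 for double mutants against bCATca, 0 to 16 for double mutants against IKKa-AA, 0 to 2 for the interaction, 0 to 22 for the average IKKa-AA effect and 3 to 24 for the average bCATca effect. A fit that leaves out an array has fewer samples and, where it leaves a group 1 array, assumes that it varies like the other groups.

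For double mutants against bCATca, 3 members among 119 genes called in either direction passed with the offset of 16, and 2 among 63 above the median level. The counts were 3 among 144 with the mean of all probe sets and 3 among 72 with the replicate block. With only the arrays compared, 13 were called among 331. For double mutants against IKKa-AA, the count was 0 with quantile normalization, with the offset, above the median level and with the mean of all probe sets. It was also 0 with the replicate block and with only the arrays compared. At most 1 of all genes was called in each of those settings. The count was 1 among 4 genes with cyclic loess and 1 among 5 with the trended robust variance. For bCATca against WT only the arrays compared gave 12, among 1458 genes called, and the average bCATca effect with the offset gave 7, among 378. The cause of these changes was not tested.

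The type I-like median minus the type II-like median ranged, with an array left out, from -1.14 to -0.09 for bCATca against WT, -0.60 to 0.12 for IKKa-AA against WT, -0.85 to -0.34 for double mutants against WT, -0.50 to 0.50 for double mutants against bCATca, -0.64 to 0.09 for double mutants against IKKa-AA, -0.06 to 0.75 for the interaction, -0.39 to 0.26 for the average IKKa-AA effect and -0.86 to -0.16 for the average bCATca effect. Of single genes, Irf1 in IKKa-AA against WT was -0.0 without IKKa-AA replicate 1 and 0.40 without IKKa-AA replicate 2, and Gbp2 in double mutants against bCATca was -0.51 without bCATca replicate 1 and 1.35 without bCATca replicate 2. Neither had been called.

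The replicate numbers do not pair the samples, since deviations from the group means of same-numbered samples correlated between -0.45 and 0.15 over the 6 pairs of groups. With the replicate block, 16 members were called higher in double mutants against WT, among 71 genes called in either direction. Dim signal limits what can be said of Mx1 and Iigp1 in WT and of the interferon genes in every group.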
